A study of Mus musculus with 12 samples.

Results

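The 10 genes described here encode enzymes and factors of DNA methylation and gene silencing that bear on how T cells keep *Cd4* silent and hold their lineage. They were chosen by symbol, with earlier results of these data known: the DNA methyltransferases *Dnmt1*, *Dnmt3a* and *Dnmt3b*, the methylation reader *Uhrf1*, the demethylating enzymes *Tet1*, *Tet2* and *Tet3*, the histone enzymes *Ezh2* and *Hdac3*, and the transcription factor *Bcl11b*. All 10 were among the 12809 genes of the table and among the 11595 genes with at least 1 CPM (read counts scaled to a common library size, with TMM factors) in at least 3 libraries, which were the genes tested.

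RNA was sequenced from CD4 and CD8 T cells sorted from lymph nodes (LN), in 12 libraries that form 4 groups of 3. By the labels, B6 mice were C57BL/6 females aged 10 weeks and FlipFlop mice were females aged 14 weeks. The study's methods give a younger range, and both sexes, for its mice unless stated otherwise, so the FlipFlop age is uncertain. In FlipFlop mice both copies of chromosome 6 carried *Cd8a* loci that encode CD4 (from the 4in8 line) and *Cd4* loci that encode CD8αβ.1 (from the 8in4 line), so a FlipFlop CD4 T cell makes its CD4 from a *Cd8a* locus. If the labelled ages hold, strain cannot be told apart from age, and FlipFlop mice also keep stretches of another inbred strain's genome from the embryonic stem cells in which the 4in8 allele was made. The labels do not say whether replicates came from separate mice, so the p-values measure only the spread between these libraries. The groups are whole sorted populations, in which fewer cells of a type and less RNA per cell cannot be told apart.

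In mammals, DNMT1 copies methylation onto the new DNA strand after replication, and UHRF1 brings it to such sites by reading DNA that is methylated on the old strand only. DNMT3A and DNMT3B set new methylation, and the TET enzymes oxidize methylcytosine as a step toward its removal. EZH2 methylates histone H3 at lysine 27 within Polycomb repressive complex PRC2, HDAC3 removes acetyl groups from histones with the NCOR corepressors, and BCL11B is a zinc finger factor that commits thymocytes to the T cell fate. In CD8 lineage T cells, *Cd4* is shut off through a silencer bound by RUNX proteins, and the silent state is later inherited through cell division with the help of DNA methylation.

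The libraries held 26.6 to 33.1 M reads on the listed genes, and even the least abundant value of a member, for *Dnmt3b*, rested on about 120 reads. *Zbtb7b*, which encodes the helper-lineage factor ThPOK, measured 192 to 203 CPM in the B6 CD4 libraries and 162 to 172 CPM in the FlipFlop CD8 libraries, and 1.16 to 2.79 CPM in the other groups. *Runx3*, which encodes the cytotoxic-lineage factor, measured 104 to 145 CPM in the libraries of B6 CD8 and FlipFlop CD4 T cells and 52.6 to 68.4 CPM in the other groups. B6 CD4 and FlipFlop CD8 T cells are called the helper-lineage groups below, and B6 CD8 and FlipFlop CD4 T cells the cytotoxic-lineage groups. The lineage effect is the mean of the helper-lineage groups minus that of the cytotoxic-lineage groups, which is also the test of whether the CD4 minus CD8 difference differs between strains. B6 CD4 replicate 1 stood apart: the fifth of genes with the longest exons minus the fifth with the shortest was -0.55 on the log2 scale there, measured against the other libraries of its group, whereas the same difference in the remaining 11 libraries lay between -0.21 and 0.30.

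*Ezh2* was higher in the helper-lineage group of both strains, and *Uhrf1* was called between CD4 and CD8 T cells in FlipFlop and not in B6 mice, with its highest group mean in FlipFlop CD8 and its lowest in B6 CD4 T cells. These genes, *Dnmt3a*, *Tet2* and *Dnmt1* were higher in FlipFlop mice. *Uhrf1*, *Dnmt3a* and *Bcl11b* had lineage effects that were lost in most fits without 1 library. *Dnmt3b*, *Tet1*, *Tet3* and *Hdac3* passed the test in none of 7 comparisons, and the share of all tested genes for which this held was not counted. Differences are on the scale of log2(CPM + 0.5) and were called at an adjusted p under 0.05 (limma, Benjamini-Hochberg over all tested genes). Between CD4 and CD8 T cells, 1 of the 10 members was called in B6 mice, where 25.4% of all tested genes were, and 2 of 10 in FlipFlop mice, where 31.3% of all genes were. The lineage effect called 4 of 10 members, all higher in the helper-lineage groups, against 39.3% of all genes, with 19.9% higher, and the coreceptor effect (both CD4 groups minus both CD8 groups) 1 of 10 against 5.49%. The strain effect (both FlipFlop groups minus both B6 groups) called 5 of 10, all higher in FlipFlop mice, against 31.2% of all genes, with 15.8% higher. What follows describes which members moved and in which cells.

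**Figure D1:**
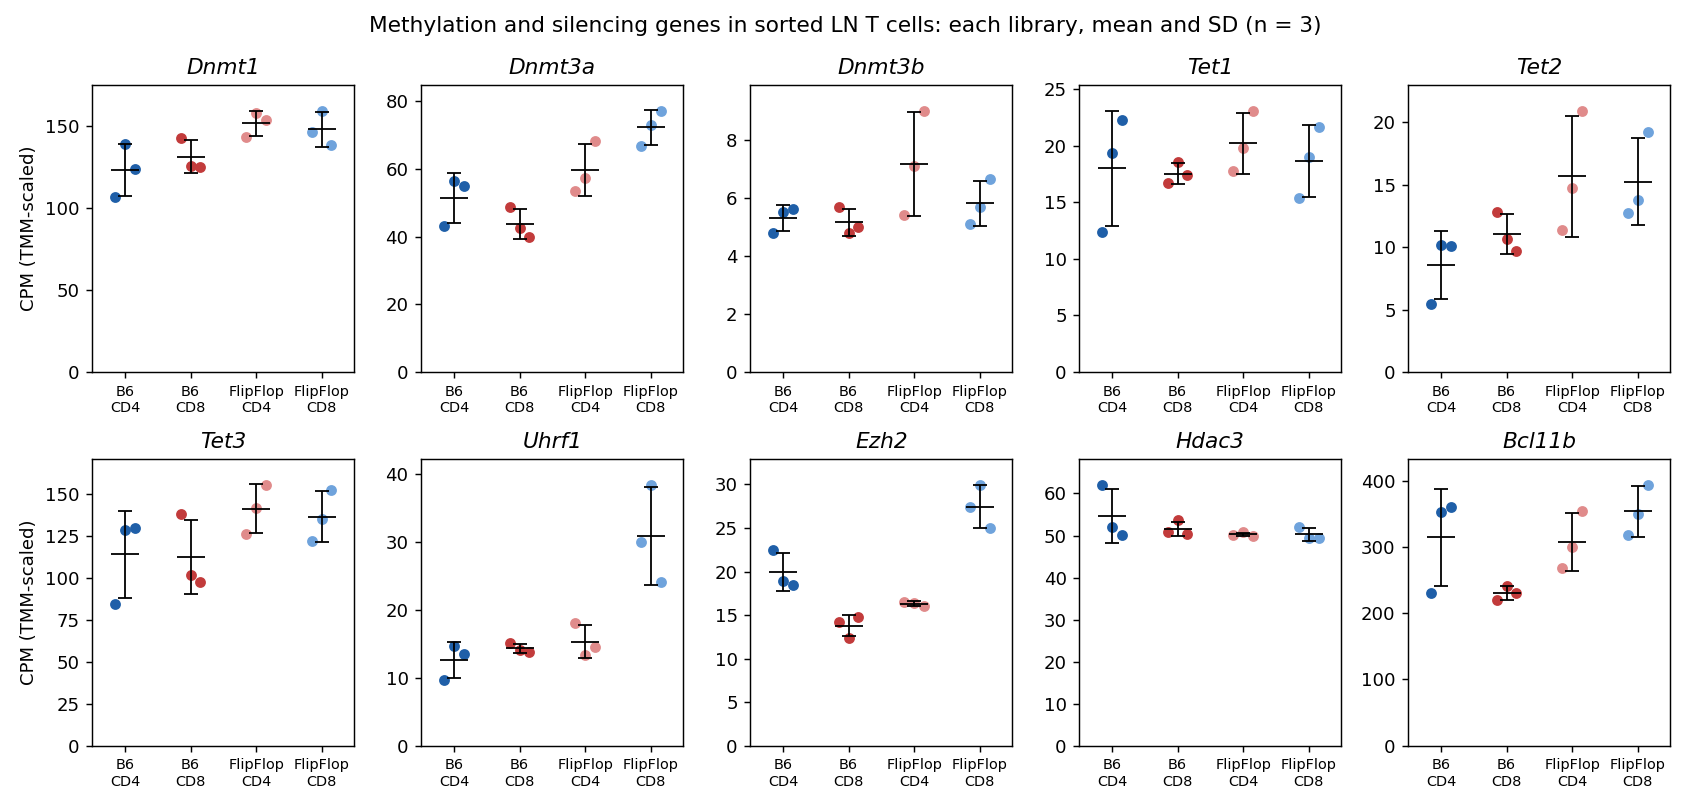
Level of each of the 10 genes in CPM (vertical axes, from 0) in the 3 libraries of each of the 4 groups, as points from replicate 1 to 3, with the mean and SD in black. *Uhrf1* stands at 24.2 to 38.4 CPM in FlipFlop CD8 T cells and at most at 18.1 CPM elsewhere, *Ezh2* separates all 4 groups, and *Hdac3* lies near 50 CPM except for the first B6 CD4 library at 62.1 CPM.

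*Uhrf1* (ENSMUSG00000001228.14, GRCm38 chromosome 17 from 56303321 to 56323486, plus strand), whose product brings DNMT1 to newly copied DNA, was higher in FlipFlop CD8 T cells than in any other group. Its 3 libraries measured 30.0, 38.4 and 24.2 CPM in FlipFlop CD8 T cells and 18.1, 13.4 and 14.5 CPM in FlipFlop CD4 T cells. In B6 mice it measured 9.62, 14.7 and 13.6 CPM in the CD4 libraries and 15.1, 14.2 and 13.8 CPM in the CD8 libraries. All 3 FlipFlop CD8 libraries lay above the other 9 libraries, among which the groups overlapped. FlipFlop CD8 libraries were apart from FlipFlop CD4 libraries for 47.2% of all tested genes and from B6 CD4 libraries for 43.6%. The share of genes with FlipFlop CD8 libraries above all others was not counted. The mean was 30.9 ± 7.2 CPM (SD, n = 3) for FlipFlop CD8 against 12.6 ± 2.7 CPM for B6 CD4 T cells, the other helper-lineage group, a log2 difference of 1.25 (SE 0.18, adjusted p = 5.69e-04). FlipFlop CD4 T cells were lower than FlipFlop CD8 T cells by 0.97 on the log2 scale (log2 difference -0.97, SE 0.18, adjusted p = 0.00127). In B6 mice the CD4 minus CD8 difference was -0.20 (95% interval -0.59 to 0.19, adjusted p = 0.48).

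*Uhrf1*, high in a single group, was called in all 3 pooled effects. It was higher in the helper-lineage groups by 0.39 (SE 0.13, adjusted p = 0.030), lower in the CD4 than in the CD8 groups (-0.59, SE 0.13, adjusted p = 0.020) and higher in FlipFlop than in B6 mice by 0.67 (SE 0.13, adjusted p = 0.0029). The B6 groups overlapped, with a mean of 12.6 CPM for CD4 and of 14.4 CPM for CD8, so the lineage effect combines a called difference in FlipFlop mice with one in B6 mice that was not called and had the other sign. The lineage call was lost in 7 of the 12 fits that left out 1 library, with a difference of 0.30 to 0.38 (adjusted p from 0.058 to 0.074), and without eBayes (adjusted p = 0.072). Those libraries were replicates 2 and 3 of B6 CD4, B6 CD8 and FlipFlop CD4 and replicate 2 of FlipFlop CD8. The coreceptor call was lost without B6 CD8 replicate 1 (-0.57, adjusted p = 0.0501) and without FlipFlop CD4 replicate 2 (-0.54, adjusted p = 0.054), as well as without eBayes (adjusted p = 0.074), and its range over all such fits was -0.67 to -0.50.

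*Ezh2* (ENSMUSG00000029687.16, chromosome 6 from 47530139 to 47595341, minus strand), the catalytic subunit of PRC2, was higher in the helper-lineage groups of both strains. It measured 22.5, 18.9 and 18.4 CPM in the B6 CD4 libraries and 14.2, 12.4 and 14.7 CPM in the B6 CD8 libraries. In FlipFlop mice it measured 27.4, 30.0 and 25.0 CPM in the CD8 libraries and 16.5, 16.4 and 16.0 CPM in the CD4 libraries. No library of any of the 4 groups overlapped another group, in the order FlipFlop CD8, B6 CD4, FlipFlop CD4 and B6 CD8 from high to low. Libraries of the 2 groups did not overlap for 37.8% of all tested genes in B6 mice and for 47.2% in FlipFlop mice, and all 6 helper-lineage libraries were apart from all 6 cytotoxic-lineage libraries for 16.9% of genes. The CD4 minus CD8 difference was 0.52 in B6 mice (SE 0.10, adjusted p = 0.0020) and -0.73 in FlipFlop mice (SE 0.10, adjusted p = 1.16e-04). The lineage effect was 0.62 (SE 0.07, adjusted p = 1.58e-05), a 1.54-fold higher level, and the coreceptor effect was -0.11 (95% interval -0.26 to 0.05, adjusted p = 0.45).

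Within the helper-lineage groups, *Ezh2* was higher in FlipFlop CD8 than in B6 CD4 T cells by 0.45 (SE 0.10, adjusted p = 0.0074), a comparison in which 4 of 10 members and 27.6% of all genes were called. Within the cytotoxic-lineage groups the difference of FlipFlop CD4 from B6 CD8 T cells was 0.24 (SE 0.10, adjusted p = 0.17), although the libraries did not overlap, as was so for 32.4% of all genes. The strain effect on *Ezh2* was 0.35 (SE 0.07, adjusted p = 0.0042). Of the 10 genes, *Ezh2* was the only member called in both the B6 and the FlipFlop comparison of CD4 with CD8 T cells. Among all tested genes 25.4% and 31.3% were called in these comparisons, and the share called in both was not counted.

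**Figure D2:**
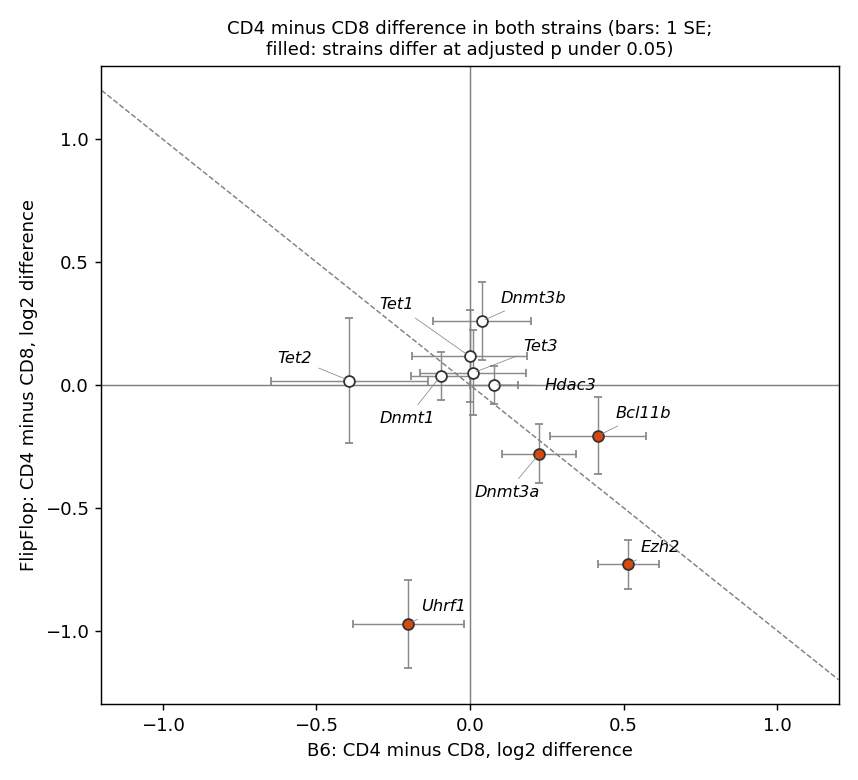
CD4 minus CD8 log2 difference of each of the 10 genes in B6 mice (horizontal axis) and in FlipFlop mice (vertical axis), with bars of 1 SE, a dashed line where the FlipFlop value is the B6 value with its sign turned, and filled points where the strains differ at an adjusted p under 0.05. *Ezh2* lies at 0.52 and -0.73, *Uhrf1* at -0.20 and -0.97, *Dnmt3a* at 0.23 and -0.28 and *Bcl11b* at 0.42 and -0.21.

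In FlipFlop mice, genes of dividing cells and of regulatory T cells were higher in CD8 than in CD4 T cells, as *Uhrf1* and *Ezh2* were. *Mki67*, a marker of cycling cells, measured 44.6 to 63.9 CPM in FlipFlop CD8 T cells and 4.16 to 16.5 CPM in the other 9 libraries. Of 20 proliferation genes, 12 were higher and 1 (*Tubb5*) was lower in FlipFlop CD8 than in FlipFlop CD4 T cells, with a median CD4 minus CD8 difference of -1.40 against 0.04 over all tested genes, and none was at 0. In FlipFlop CD8 against B6 CD4 T cells 13 of the 20 were higher and 2 lower, with a median of 0.91 against -0.01 over all tested genes, and 11 were higher and 2 lower in FlipFlop than in B6 mice. Their summed level, of which *Tubb5* made up much, was 1594 to 1912 CPM in FlipFlop CD8, 1777 to 2099 CPM in FlipFlop CD4, 1761 to 1846 CPM in B6 CD4 and 2113 to 2153 CPM in B6 CD8 T cells. In B6 mice 6 of the 20 were higher and 3 lower in CD4 than in CD8 T cells, and *Mki67* was among the 6. *Foxp3*, which defines regulatory T cells, measured 305 to 362 CPM in the FlipFlop CD8 libraries, 93.1 to 128 CPM in the B6 CD4 libraries and at most 2.30 CPM in the cytotoxic-lineage libraries. In B6 mice 7 of 8 regulatory T cell markers were higher and 1 (*Il2rb*) was lower in CD4 than in CD8 T cells. All 8 were higher in FlipFlop CD8 than in FlipFlop CD4 T cells and in B6 CD4 T cells, and their sum was 1640 to 1814 CPM, 410 to 428 CPM and 681 to 823 CPM in these groups, against 609 to 648 CPM in B6 CD8 T cells. *Il2rb* alone made up 547 to 585 CPM of the B6 CD8 sums and 340 to 353 CPM of the FlipFlop CD4 sums. The part of dividing cells and of regulatory T cells in the levels of *Uhrf1* and *Ezh2* was not tested.

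**Figure D3:**
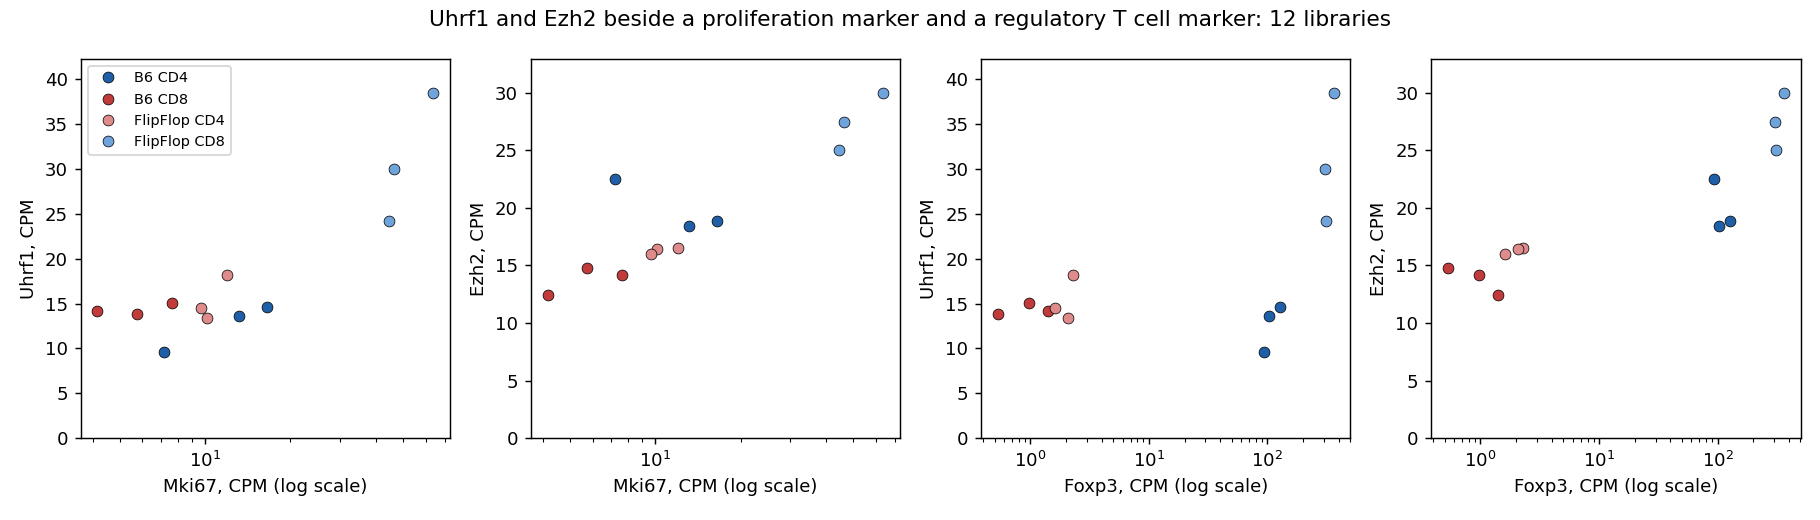
*Uhrf1* and *Ezh2* in CPM (vertical axes, from 0) against *Mki67* or *Foxp3* in CPM (horizontal log axes), 1 point per library and 1 colour per group. The 3 FlipFlop CD8 libraries are highest in each panel, *Ezh2* is also higher in B6 CD4 than in the cytotoxic-lineage libraries, and *Uhrf1* overlaps them there.

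Markers of other cells were also measured. Of 8 myeloid markers 4 were in the table, and they summed to 14.4 to 25.7 CPM in FlipFlop CD8 and 5.80 to 8.06 CPM in FlipFlop CD4 T cells, with 18.8 to 28.3 CPM in B6 CD4 and 7.60 to 19.9 CPM in B6 CD8 T cells. Of 5 natural killer cell markers 3 were in the table, with sums of 11.7 to 12.997 CPM in FlipFlop CD8 T cells and at most 9.14 CPM in the others, and *Ncr1* was not among them. The 3 markers differed: *Klrb1c* made up 10.2 to 11.8 CPM of the FlipFlop CD8 sums, *Klre1* was at most at 0.200 CPM there against 2.06 to 4.17 CPM in B6 CD8 T cells, and *Tyrobp* was at 1.09 to 1.45 CPM against 0.920 to 1.88 CPM in B6 libraries. The 8 B cell markers summed to 530 to 676 CPM over all libraries, of which *Ighm* made up 467 to 636 CPM. Among T cells, 5 of 7 naive cell markers were lower and 5 of 10 memory or effector markers were higher in FlipFlop CD8 than in FlipFlop CD4 T cells, with 1 of these 10 (*Eomes*) lower. Against B6 CD4 T cells, 4 of the 7 were lower and 6 of the 10 higher in FlipFlop CD8 T cells, and none was called the other way. Of 7 general T cell markers, which summed to 4374 to 6543 CPM over all libraries, 4 were lower in FlipFlop than in B6 mice. Of 6 red blood cell markers 4 were in the table, and all 4 were lower in FlipFlop mice, with sums of 6.67 to 28.8 CPM over all libraries. The part of these cells in the members' levels was not tested.

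The E2F family of cell cycle factors binds sites close to TTTCCCGC, TTTCGCGC, TTTGCCGC or TTTGGCGC, and these 4 forms were looked for on both strands from 250 bases before to 50 after each RefSeq start (GRCm38.p6). The motif was picked after the values of *Uhrf1* and *Ezh2* were seen. Of 14 promoters of 9 members in the table, 3 held a match, of *Dnmt1*, *Uhrf1* and *Ezh2*, and 2.26% of all 32851 promoters did. Each form holds a CG, and these promoters held 33, 33 and 31 CG pairs, against a median of 7 over all promoters. The 2.26% is therefore not a background of like promoters, and nothing follows from the count. They are shown because *Uhrf1* and *Ezh2* were both highest in FlipFlop CD8 T cells, where *Mki67* was too, and *Dnmt1* as the third member with a match. They are chr17:56304063-56304362 (plus strand), chr6:47594981-47595280 (minus strand) and chr9:20952574-20952873 (minus strand), each 5′ to 3′ with the matches in capitals.
Uhrf1: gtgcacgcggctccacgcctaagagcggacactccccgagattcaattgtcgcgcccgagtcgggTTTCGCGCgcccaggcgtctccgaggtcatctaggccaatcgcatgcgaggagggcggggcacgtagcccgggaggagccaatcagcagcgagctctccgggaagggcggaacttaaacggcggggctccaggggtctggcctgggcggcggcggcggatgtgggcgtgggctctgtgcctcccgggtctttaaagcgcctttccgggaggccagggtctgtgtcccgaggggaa
Ezh2: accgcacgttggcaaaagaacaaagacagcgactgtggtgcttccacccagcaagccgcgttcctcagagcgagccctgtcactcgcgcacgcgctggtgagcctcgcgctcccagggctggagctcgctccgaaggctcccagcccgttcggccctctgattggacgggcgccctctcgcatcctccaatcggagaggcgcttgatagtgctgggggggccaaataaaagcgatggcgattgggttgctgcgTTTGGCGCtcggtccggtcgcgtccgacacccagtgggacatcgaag
Dnmt1: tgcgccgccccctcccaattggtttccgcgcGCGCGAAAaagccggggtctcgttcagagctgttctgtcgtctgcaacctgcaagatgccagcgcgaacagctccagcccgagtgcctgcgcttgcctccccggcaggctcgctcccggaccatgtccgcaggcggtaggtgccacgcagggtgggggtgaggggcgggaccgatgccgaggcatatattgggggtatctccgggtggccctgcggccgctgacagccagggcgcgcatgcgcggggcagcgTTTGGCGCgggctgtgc

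The match of *Uhrf1* is TTTCGCGC and begins at base -185 from the start, that of *Ezh2* is TTTGGCGC and begins at base 4. *Dnmt1* holds GCGCGAAA, the reverse complement of TTTCGCGC, at base -219 and TTTGGCGC at base 34. The other starts given for *Dnmt1* and *Uhrf1* held no match, and in both genes they lie upstream of the start shown. A match describes these letters only, and where no match was found nothing follows about E2F.

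*Dnmt1* (ENSMUSG00000004099.16, chromosome 9 from 20907209 to 20959888, minus strand), the maintenance methyltransferase, differed by strain and not measurably by lineage. It measured 107, 139 and 124 CPM in the B6 CD4 libraries, 143, 126 and 125 CPM in the B6 CD8 libraries, 143, 158 and 154 CPM in the FlipFlop CD4 libraries and 146, 159 and 138 CPM in the FlipFlop CD8 libraries. The ranges of B6 and FlipFlop libraries overlapped, and the lowest value was that of B6 CD4 replicate 1. The strain effect was 0.24 (SE 0.07, adjusted p = 0.022), a 1.18-fold higher level in FlipFlop mice. That call was lost in 4 of 12 fits that left out 1 library (B6 CD8 replicates 2 and 3 and replicate 2 of both FlipFlop groups), with values of 0.21 to 0.22 and adjusted p from 0.054 to 0.059, and with the first B6 CD4 library left out and length centring, in which each library was centred within bins of exonic length (0.16, adjusted p = 0.058). The lineage effect was -0.07 (95% interval -0.21 to 0.08, adjusted p = 0.49). In FlipFlop CD8 T cells, where *Uhrf1* was highest, *Dnmt1* was at 148 ± 11 CPM (SD, n = 3) beside 152 ± 7.7 CPM in FlipFlop CD4 T cells.

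Among other genes that act with *Uhrf1*, *Hells*, which encodes a chromatin remodeller needed for normal DNA methylation, was also highest in FlipFlop CD8 T cells. It measured 18.8, 21.3 and 18.7 CPM in FlipFlop CD8 T cells and 8.30 to 14.8 CPM in the other 9 libraries. The share of all genes with such a gap was not counted. *Hells* was higher in FlipFlop CD8 than in B6 CD4 T cells by 0.94 (SE 0.12, adjusted p = 3.37e-04) and lower in FlipFlop CD4 than in FlipFlop CD8 T cells (-0.52, adjusted p = 0.0069), and its lineage effect was 0.13 (adjusted p = 0.29). *Usp7*, whose product removes ubiquitin and stabilizes UHRF1 and DNMT1, had differences between -0.02 and 0.19 in the 7 comparisons and was called in none.

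*Dnmt3a* (ENSMUSG00000020661.15, chromosome 12 from 3806007 to 3914443, plus strand), a de novo methyltransferase, was higher in FlipFlop mice and, by a call lost in most fits without 1 library, in the helper-lineage groups. It measured 43.1, 56.4 and 55.0 CPM in the B6 CD4 libraries and 48.7, 42.6 and 40.1 CPM in the B6 CD8 libraries. In FlipFlop mice it measured 53.6, 57.3 and 68.3 CPM in the CD4 libraries and 66.9, 73.1 and 77.2 CPM in the CD8 libraries. FlipFlop CD8 libraries were apart from both B6 groups (as 43.6% of all genes were from B6 CD4) and overlapped FlipFlop CD4 libraries, and B6 CD4 replicate 1 fell within the B6 CD8 range. The strain effect was 0.47 (SE 0.09, adjusted p = 0.0023), and 0.23 (adjusted p = 0.0042) with length centring. FlipFlop CD8 differed from B6 CD4 T cells by 0.50 (SE 0.12, adjusted p = 0.012). The latter call was lost without FlipFlop CD8 replicate 3 (0.45, adjusted p = 0.052) and with length centring (0.20, adjusted p = 0.051). FlipFlop CD4 T cells exceeded B6 CD8 T cells by 0.44 (SE 0.12, adjusted p = 0.044), the call of 1 of 10 members where 7.92% of all genes were called. This call was lost in 7 of 12 fits that left out 1 library, with values of 0.34 to 0.47 and adjusted p from 0.052 to 0.17, namely without replicates 2 and 3 of B6 CD8 and of FlipFlop CD4 and without any FlipFlop CD8 library. It was also lost without eBayes (adjusted p = 0.0995) and without the TMM factor (0.50, adjusted p = 0.063), and the value was 0.27 with length centring (adjusted p = 0.028).

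The lineage effect on *Dnmt3a* was 0.25 (SE 0.09, adjusted p = 0.033), from a CD4 minus CD8 difference of 0.23 in B6 mice (adjusted p = 0.21) and of -0.28 in FlipFlop mice (adjusted p = 0.10), neither called alone. Without B6 CD4 replicate 1 the differences were 0.35 (adjusted p = 0.034) and -0.28 (adjusted p = 0.041), both called. The FlipFlop difference was also called without the TMM factor (-0.46, adjusted p = 0.033). The lineage call was lost in 8 of 12 fits that left out 1 library, with values of 0.22 to 0.25 and adjusted p from 0.065 to 0.082. Those were replicates 2 and 3 of B6 CD4, B6 CD8 and FlipFlop CD8 and replicates 1 and 2 of FlipFlop CD4. It was also lost without eBayes (adjusted p = 0.070), and with length centring it was 0.27 (adjusted p = 5.61e-04), beside a strain effect of 0.23. *Dnmt3aos*, an antisense transcript, shares 133 exonic bases with *Dnmt3a* and is not in the table, and without a stated strand setting its reads cannot be told apart. The same holds for *Gm26625*, which shares 174 exonic bases with *Ezh2*, and *Gm42567*, which shares 43 with *Tet2*.

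*Dnmt3b* (ENSMUSG00000027478.15, chromosome 2 from 153649450 to 153687730, plus strand), the other de novo methyltransferase, was less abundant than *Dnmt3a* per length, at 1.04 against 3.09 CPM per kb in B6 CD4 T cells, and was called in no comparison. It measured 4.81, 5.52 and 5.64 CPM in the B6 CD4 libraries, 5.69, 4.80 and 5.003 CPM in the B6 CD8 libraries, 5.42, 7.10 and 8.998 CPM in the FlipFlop CD4 libraries and 5.11, 5.69 and 6.66 CPM in the FlipFlop CD8 libraries. All 4 groups overlapped, and FlipFlop CD4 replicates 2 and 3 were the highest libraries. The strain effect was 0.26 (95% interval 0.02 to 0.51, adjusted p = 0.093), and it was 0.35 (adjusted p = 0.022) without FlipFlop CD4 replicate 1. Without that library FlipFlop CD4 T cells also exceeded FlipFlop CD8 T cells by 0.43 (adjusted p = 0.0499) and B6 CD8 T cells by 0.59 (adjusted p = 0.036), against 0.26 and 0.41 with it.

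The TET enzymes showed no lineage difference that passed the test. *Tet3* (ENSMUSG00000034832.15, chromosome 6 from 83362373 to 83459084, minus strand) was the most abundant of them per length, at 6.75 to 8.47 CPM per kb as group means, and measured 84.3, 128 and 130 CPM in the B6 CD4 libraries, 138, 102 and 97.9 CPM in the B6 CD8 libraries, 126, 142 and 156 CPM in the FlipFlop CD4 libraries and 122, 135 and 152 CPM in the FlipFlop CD8 libraries. *Tet2* (ENSMUSG00000040943.12, chromosome 3 from 133463679 to 133545139, minus strand) measured 5.45, 10.2 and 10.1 CPM in the B6 CD4 libraries, 12.8, 10.7 and 9.71 CPM in the B6 CD8 libraries, 11.4, 14.7 and 20.9 CPM in the FlipFlop CD4 libraries and 12.7, 13.8 and 19.2 CPM in the FlipFlop CD8 libraries. *Tet1* (ENSMUSG00000047146.17, chromosome 10 from 62804570 to 62908996, minus strand) measured 12.4, 19.4 and 22.2 CPM in the B6 CD4 libraries, 16.7, 18.6 and 17.4 CPM in the B6 CD8 libraries, 17.7, 19.8 and 23.1 CPM in the FlipFlop CD4 libraries and 15.3, 19.0 and 21.6 CPM in the FlipFlop CD8 libraries. For each of these genes the first B6 CD4 library was the lowest of all 12, and the strains overlapped.

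The lineage effects were -0.02 for *Tet3* (95% interval -0.29 to 0.25), -0.21 for *Tet2* (-0.60 to 0.19) and -0.06 for *Tet1* (-0.35 to 0.23). *Tet2* was higher in FlipFlop mice by 0.64 (SE 0.18, adjusted p = 0.022) and in FlipFlop CD8 than in B6 CD4 T cells by 0.82 (SE 0.26, adjusted p = 0.033). The first call was lost without B6 CD8 replicate 3, FlipFlop CD4 replicate 3 or FlipFlop CD8 replicate 3 (0.52 to 0.59, adjusted p from 0.051 to 0.056) and without eBayes (adjusted p = 0.062). With length centring it was 0.40 (adjusted p = 0.028), and it was lost when the first B6 CD4 library was also left out (0.34, adjusted p = 0.059). The second was lost without B6 CD4 replicate 1 (0.54, adjusted p = 0.12), which moved the value by more than 1.5 times on the log2 scale, and without FlipFlop CD8 replicate 2 (0.88, adjusted p = 0.067) or 3 (0.65, adjusted p = 0.13). It was also lost in the fit of the 6 libraries compared (adjusted p = 0.071), without eBayes (adjusted p = 0.083), and with length centring and the first B6 CD4 library left out (0.40, adjusted p = 0.15), while centring alone gave 0.53 (adjusted p = 0.043). The strain effect was 0.31 for *Tet3* (adjusted p = 0.072), called without B6 CD4 replicate 3 (0.36, adjusted p = 0.044) or B6 CD8 replicate 1 (0.39, adjusted p = 0.033), and 0.13 for *Tet1* (adjusted p = 0.46). *Tdg*, whose product removes the oxidized bases that TET enzymes make, had differences of 0.00 to 0.11 in the 7 comparisons and was called in none.

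**Figure D4:**
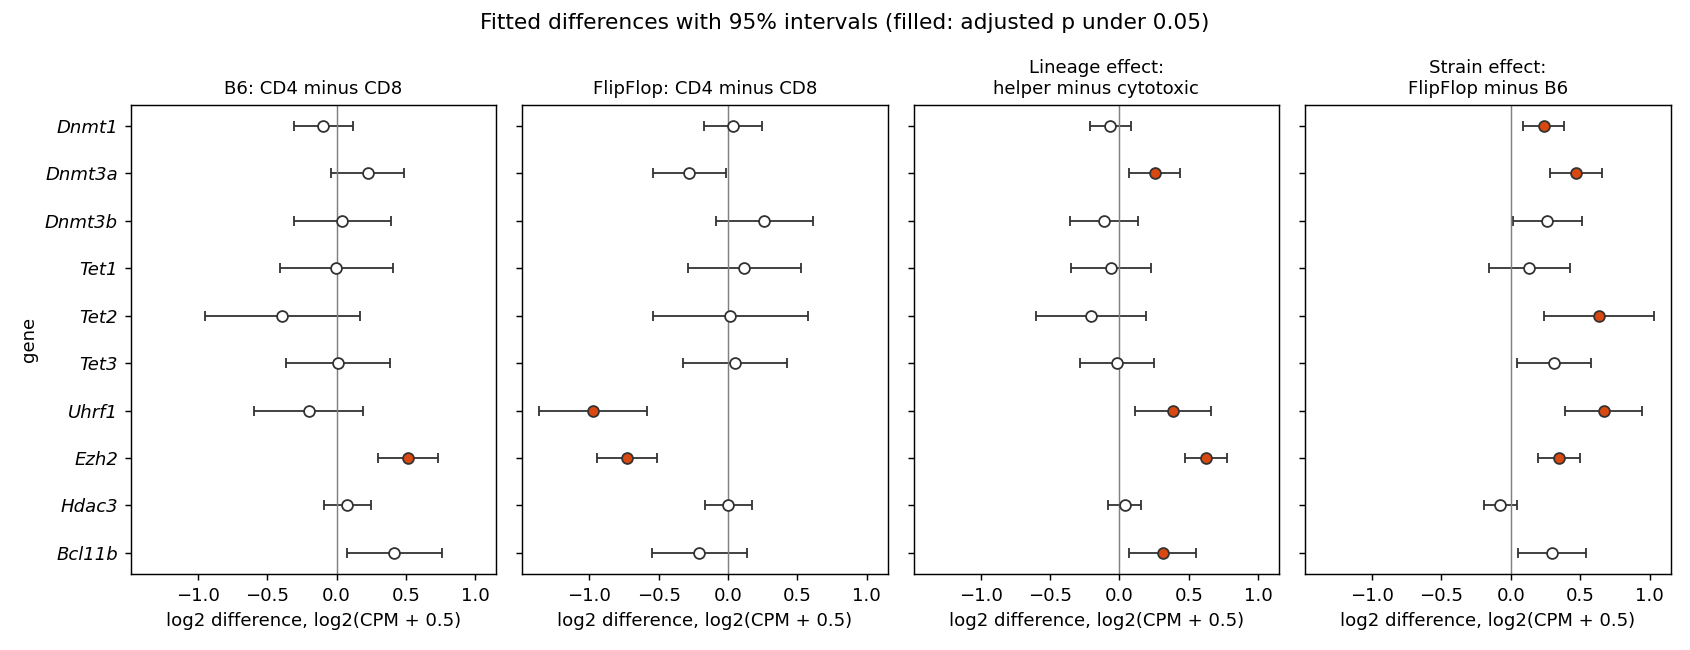
Fitted log2 differences with 95% intervals (horizontal axes) of the 10 genes (vertical axis) for CD4 minus CD8 T cells in B6 and in FlipFlop mice, for the lineage effect and for the strain effect, with filled points at an adjusted p under 0.05. *Ezh2* is filled in all 4 panels, *Uhrf1* in the last 3, and *Hdac3* lies between -0.08 and 0.08 in all 4.

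*Hdac3* (ENSMUSG00000024454.16, chromosome 18 from 37935844 to 37955016, minus strand), the deacetylase of the NCOR complexes, was the steadiest member. It measured 62.1, 51.9 and 50.1 CPM in the B6 CD4 libraries, 50.7, 53.6 and 50.4 CPM in the B6 CD8 libraries, 50.04, 50.8 and 49.97 CPM in the FlipFlop CD4 libraries and 51.9, 49.5 and 49.3 CPM in the FlipFlop CD8 libraries. Apart from B6 CD4 replicate 1, its libraries lay within 49.3 to 53.6 CPM. Its largest difference in size was -0.12 of FlipFlop CD8 from B6 CD4 T cells (95% interval -0.28 to 0.05, adjusted p = 0.28), and the lineage effect was 0.04 (95% interval -0.08 to 0.16). Without the TMM factor, which moved all genes by 0.12 in that comparison, the lineage effect was 0.16 and was called (adjusted p = 0.026). *Ncor1*, which encodes a corepressor partner, was higher in FlipFlop mice by 0.37 (adjusted p = 0.049) and had a lineage effect of -0.15 (adjusted p = 0.39). It was at 158 CPM in B6 CD4 replicate 1, against 290 and 248 CPM in the other B6 CD4 libraries, and its exonic length is 12.8 kb. Its call without that library or with length centring is not given here.

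*Bcl11b* (ENSMUSG00000048251.15, chromosome 12 from 107910403 to 108003602, minus strand), which keeps T cells committed to their lineage, was the most abundant member per length. It measured 230, 352 and 361 CPM in the B6 CD4 libraries and 221, 242 and 230 CPM in the B6 CD8 libraries. In FlipFlop mice it measured 268, 300 and 354 CPM in the CD4 libraries and 318, 350 and 394 CPM in the CD8 libraries. B6 CD4 replicate 1 lay within the B6 CD8 range and the other B6 CD4 libraries well above it. The FlipFlop groups overlapped, though the CD8 library was higher than the CD4 library at each of the 3 replicate numbers. The CD4 minus CD8 difference was 0.42 in B6 mice (95% interval 0.07 to 0.76, adjusted p = 0.075) and -0.21 in FlipFlop mice (95% interval -0.55 to 0.14, adjusted p = 0.37). The lineage effect was 0.31 (SE 0.11, adjusted p = 0.042), and it was lost in 9 of 12 fits that left out 1 library, with values of 0.25 to 0.33 and adjusted p from 0.061 to 0.10, and without eBayes (adjusted p = 0.096). Of the fits without 1 library, the call held in those without B6 CD4 replicate 1, FlipFlop CD4 replicate 3 or FlipFlop CD8 replicate 1. Without B6 CD4 replicate 1, the B6 difference was 0.63 (adjusted p = 0.0015) and FlipFlop CD4 T cells exceeded B6 CD8 T cells by 0.40 (adjusted p = 0.023, where the fit with all libraries had the same difference at an adjusted p of 0.15). The strain effect was 0.30 (SE 0.11, adjusted p = 0.060) and was called without replicate 2 or 3 of B6 CD4 or replicate 1 of FlipFlop CD4 (highest value 0.35, adjusted p from 0.031 to 0.044). With the replicate number as a block, *Bcl11b* was called in B6 mice (adjusted p = 0.016) and not in FlipFlop mice (adjusted p = 0.15). It was also called by strain (adjusted p = 0.011) and for FlipFlop CD4 against B6 CD8 T cells (adjusted p = 0.035). For these comparisons between strains the block joined the same replicate number of B6 and FlipFlop mice, which no label ties together. *Bcl11a*, the paralog, measured at most a group mean of 1.13 CPM and did not pass the filter.

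The strain effect on the long members moved with a trend over all genes. The median strain effect was -0.15 in the fifth of genes with the shortest exons and 0.15 in the fifth with the longest, against -0.01 over all tested genes. *Dnmt3a*, *Tet1*, *Tet2* and *Tet3* have exonic lengths of 15.5 to 16.9 kb, and the other members 4.05 to 8.11 kb. After each library was centred within 20 bins of exonic length, an alternative chosen after seeing the data, the strain effect fell to 0.23 for *Dnmt3a* (adjusted p = 0.0042), 0.40 for *Tet2* (adjusted p = 0.028), 0.07 for *Tet3* and -0.10 for *Tet1*. It was 0.68 for *Uhrf1*, 0.29 for *Ezh2*, 0.19 for *Dnmt1* and 0.26 for *Dnmt3b*. The same 5 members were called, though the call of *Dnmt3a* for FlipFlop CD8 against B6 CD4 T cells was lost, as given above. When the first B6 CD4 library was left out as well, the strain calls of *Dnmt1* (0.16, adjusted p = 0.058) and *Tet2* (0.34, adjusted p = 0.059) were lost. With centring alone, the CD4 minus CD8 difference in B6 mice was called for *Dnmt3a* (0.30, adjusted p = 0.0044) and *Bcl11b* (0.42, adjusted p = 0.019), and that in FlipFlop mice for *Dnmt3a* (-0.23, adjusted p = 0.017).

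**Figure D5:**
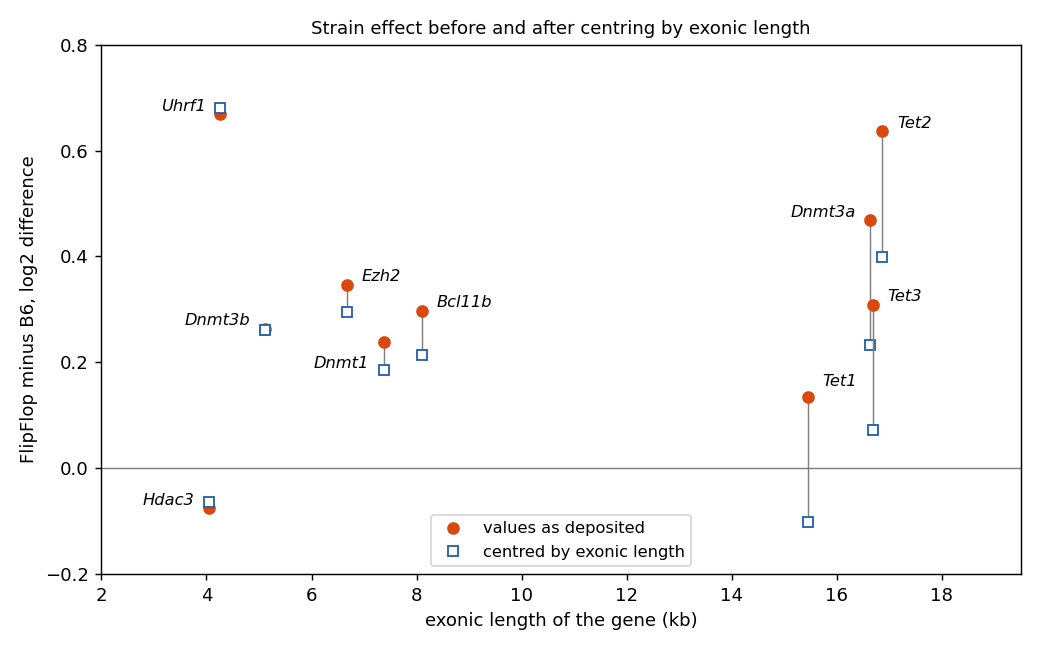
Strain effect (FlipFlop minus B6, log2 difference, vertical axis) of the 10 genes against their exonic length in kb (horizontal axis), from the values as deposited (circles) and after centring each library within bins of exonic length (squares). The 4 genes of 15.5 to 16.9 kb move down, *Dnmt3a* from 0.47 to 0.23 and *Tet3* from 0.31 to 0.07, and the shorter ones move less, *Uhrf1* from 0.67 to 0.68 and *Bcl11b* from 0.30 to 0.21.

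Per kilobase of exon, the order of levels was nearly the same in the 4 groups. *Bcl11b* was highest, at 28.5 to 43.6 CPM per kb as group means, followed by *Dnmt1* (16.7 to 20.6), *Hdac3* (12.4 to 13.5) and *Tet3* (6.75 to 8.47), and only *Dnmt1* and *Hdac3* of these neighbours overlapped, in B6 CD4 T cells. *Tet2* had the lowest mean in each group, at 0.51 to 0.93 CPM per kb, and its libraries overlapped those of the next member in both FlipFlop groups (*Tet1* in CD4 and *Dnmt3b* in CD8) and in neither B6 group. Between them, *Dnmt3a*, *Ezh2* and *Uhrf1* lay within 2.96 to 3.09 CPM per kb in B6 CD4 T cells, where their libraries overlapped. In FlipFlop CD8 T cells *Uhrf1* reached 7.25 ± 1.68 CPM per kb (SD, n = 3) and overlapped *Tet3* at 8.19 ± 0.91, above *Dnmt3a* at 4.35 ± 0.31 and *Ezh2* at 4.11 ± 0.37. *Tet1* and *Dnmt3b* were neighbours in each group, at 1.01 to 1.40 CPM per kb, and overlapped in all 4.

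The DNA methylation pathway was described by a list of 32 genes, of which 30 were in the table. Of these 30, *Uhrf1*, *Dnmt3a* and the other members of the list included, 6 were higher and 4 lower in the helper-lineage groups, with a median of -0.05 against -0.03 over all tested genes. The lineage effect called 39.3% of all tested genes, so this count is no more than the background. Without the members, 4 of 23 were higher and 4 lower. *Cxxc5*, a CpG-binding protein, was lower by far in the helper-lineage groups (-2.95, adjusted p = 3.91e-10), at 31.4 to 49.0 CPM in the cytotoxic-lineage libraries and 3.34 to 8.002 CPM in the helper-lineage ones. *Gadd45b* (0.84, adjusted p = 1.34e-04) and *Gadd45a* (0.69, adjusted p = 7.98e-04), stress-response genes also tied to demethylation, and *Idh1* (0.56, adjusted p = 4.96e-04), which makes the cofactor of the TET enzymes, were higher there. *Mbd2*, a reader of methylated DNA, was lower (-0.17, adjusted p = 0.0086). Of the 23 tested genes that are not members, 4 were higher and 4 lower by strain, with a median of 0.03, whereas the median over the 10 members was 0.30 and over all tested genes -0.01.

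In the Polycomb list of 13 genes (PRC2 and the H3K27 demethylases), 4 were higher and 1 lower in the helper-lineage groups, with a median of 0.03, a count close to the 39.3% called among all tested genes. They were *Ezh2*, *Kdm6b* (0.35, adjusted p = 0.027), *Phf19* (0.34, adjusted p = 0.022) and *Phf1* (0.23, adjusted p = 0.0052), with *Rbbp7* lower (-0.24, adjusted p = 7.21e-04). *Kdm6b* encodes a demethylase that removes the mark EZH2 sets, and *Phf19* and *Phf1* encode accessory subunits of PRC2. *Eed* and *Suz12*, which encode core subunits beside *Ezh2*, were not called in any comparison, with differences of -0.13 to 0.10 for *Eed* and -0.08 to 0.30 for *Suz12*. *Ezh1*, the other catalytic subunit, measured 77.9 ± 2.8 CPM for B6 CD4 and 85.7 ± 4.9 CPM for FlipFlop CD8 (SD, n = 3) and had a lineage effect of -0.07 (adjusted p = 0.28). *Kdm6a* was higher in FlipFlop mice by 0.32 (adjusted p = 0.046), with a lineage effect of -0.09 (adjusted p = 0.57). It was at 44.2 CPM in B6 CD4 replicate 1, against 71.2 and 76.4 CPM in the other B6 CD4 libraries, and its call without that library is not given here.

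The counts of the following lists are likewise to be read against 39.3% of all tested genes called for lineage. Of 19 PRC1 genes, 5 were higher and 4 lower in the helper-lineage groups, led by *Pcgf2* (1.38, adjusted p = 1.03e-05), *Cbx6* (0.73, adjusted p = 3.46e-08), *Pcgf6* (-0.43, adjusted p = 0.0039) and *Cbx8* (-0.36, adjusted p = 0.0056), which encode subunits of PRC1. Among 18 histone deacetylases and sirtuins, 7 were higher and 3 lower, with a median of 0.08. *Hdac9* (1.44, adjusted p = 5.96e-06), *Hdac11* (1.29, adjusted p = 4.03e-06) and *Hdac10* (0.67, adjusted p = 1.29e-05) were higher and *Sirt3* was lower (-0.75, adjusted p = 2.81e-06), beside the steady *Hdac3*. *Hdac9* and *Hdac11* were at most at 7.20 and 2.31 CPM in any library. Among 20 corepressor genes 1 was higher and 4 were lower, namely *Rcor3* (0.66, adjusted p = 1.56e-04) and, with the largest falls, *Mta3* (-0.71, adjusted p = 7.00e-08) and *Gatad2a* (-0.52, adjusted p = 1.86e-05), subunits of the NuRD complex. Among 16 genes of H3K9 methylation 2 were higher and 4 lower, with *Suv39h1* at -0.35 (adjusted p = 9.71e-05) and *Kdm4b* at -0.33 (adjusted p = 4.81e-04). Of 21 tested regulators of T cell lineage, *Bcl11b* included, 9 were higher and 5 lower, and *Zbtb7b* (6.27), *Tox2* (3.74), *Runx3* (-1.03) and *Gata3* (1.02) had the largest effects.

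Over the 12 libraries, the genes whose log2 level was most like that of a member are given as a description, since libraries of 1 group share their group and the members share the length trend. For *Uhrf1* they were *Foxm1*, *Trip13* and *Fignl1* (Pearson r of 0.96, 0.95 and 0.95), of which *Foxm1* encodes a cell cycle transcription factor. For *Ezh2* they were *Wdr66*, *Dnph1* and *Capn3* (0.98, 0.98 and 0.97). For *Dnmt3a* they were *Dicer1*, *Ankrd12* and *Asap1* (0.99, 0.98 and 0.98), and for *Bcl11b* *Fam168a*, *Ctcf* and *Rasgrp1* (0.96, 0.96 and 0.95). *Dnmt1* was most like *Khsrp*, *Cmip* and *Ube4b* (0.96, 0.96 and 0.95), and *Dnmt3b* most like *Brd1*, *Eif2ak4* and *Smurf1* (0.95, 0.95 and 0.93). The TET genes were most like *Pkn2*, *Traf6* and *Zfp329* (*Tet1*, 0.94, 0.92 and 0.91), *Ankrd26*, *Trip11* and *Casp8ap2* (*Tet2*, 0.98, 0.98 and 0.97) and *Nsd1*, *Scaf11* and *Arid1a* (*Tet3*, 0.98, 0.97 and 0.97). *Hdac3* was most like *Prkcsh*, *Ogfod2* and *Mmadhc* (0.95, 0.94 and 0.94). Among the members themselves, *Tet2* and *Tet3* had the highest r (0.89), then *Dnmt3a* and *Bcl11b* (0.86), and *Hdac3* was at -0.78 with both *Tet2* and *Tet3*. In B6 CD4 replicate 1 *Hdac3* was at its highest (62.1 CPM) and *Tet2* (5.45 CPM) and *Tet3* (84.3 CPM) at their lowest. These r values without that library were not computed.

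*Tet3* and *Ezh2* share chromosome 6 with the altered coreceptor loci. *Tet3* lies 11.98 Mb from *Cd8a* and 41.4 Mb from *Cd4*, and *Ezh2* lies 23.8 Mb and 77.3 Mb from them. Within 1 Mb of *Ezh2*, 2 of 15 tested genes were called in the strain effect, and 11 of 25 were near *Tet3*, against 31.2% of all tested genes. The shares were highest around *Dnmt3b* (14 of 20) and *Dnmt3a* (8 of 15), and they were 11 of 41 around *Dnmt1*, 15 of 45 around *Uhrf1*, 2 of 18 around *Tet1*, 2 of 6 around *Tet2*, 1 of 13 around *Hdac3* and 1 of 9 around *Bcl11b*. *Dnmt3b*, with the highest share of called neighbours, was itself not called. These counts are given as a description, and whether sequence of that other strain lies at any member was not tested.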

How the data were processed

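RNA of sorted LN CD4 and CD8 T cells of B6 and FlipFlop mice was amplified from low input and sequenced in pairs of reads. The authors deposited 1 table of a signal per gene and library, the CPM scaled by TMM, and no read counts were used here. The study's methods name STAR as the aligner, whereas the submitters' processing notes name TopHat, Trimmomatic and mm10, so the aligner is uncertain, and whether counting used strand is not given in the sources used here. No column of per-sample values was left unused (0 columns), and the 12 libraries were taken from the labels by group and replicate.

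Depth was read from the steps between low values: 1 read was worth 0.0286 to 0.0400 CPM. Only 85.4% to 87.0% of values under 100 CPM lay within 0.02 of a whole number of reads, so no count test was run. A count of 3 reads would be 0.0857 to 0.120 CPM, which covers counting error only. The 66 pairs of libraries held no identical pair. Genes that reached 1 CPM in 3 or more libraries were tested on log2(CPM + 0.5) with limma 3.58.1 in R 4.3.3, in 1 fit of 4 groups (8 residual degrees of freedom), two-sided, with Benjamini-Hochberg adjustment over all 11595 genes. A fold on this scale understates the change of low genes. Figures and tables were made with Python 3.11.15, pandas 2.3.3 and matplotlib 3.10.9. Gene positions and exonic lengths are from GENCODE M21, in which all 12809 gene IDs were found, and promoters are from RefSeq.

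The members and lists were chosen with earlier results of these data known. Besides the members, the text names up to 4 genes of each list with the largest called lineage effect, known partners of members, the genes that check the labels, and the 3 genes most like each member, and some genes of this rule are not reported here. The other markers named were chosen after their values were seen. Alternatives were other scalings, filters, pseudocounts (0.1 and 1), fits, call limits, a replicate block, centring by length and leaving out each library.

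On simulated data for B6 CD4 minus B6 CD8 (11332 genes), the fit called 34 of 49 genes changed 1.5-fold, 43 of 50 changed 2-fold and 10 of 11133 unchanged genes. Samples with the same replicate number deviated together in FlipFlop mice (r of 0.44, 0.27 and 0.51), and any pairing there would rest on these correlations only. In B6 mice r was 0.18, 0.089 and 0.35. The main fit took the numbers as pairs in neither strain, so its p-values leave these correlations out.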

Additional observations from a re-analysis of the deposited data

Results flagged for a closer look

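For 4 of the 10 genes the CD4 minus CD8 difference differed between the strains by the test of the interaction (limma, adjusted over all tested genes). This is the same test as that of the lineage effect, seen from the other side, and it called 39.3% of all tested genes, so 4 of 10 is at the background. The FlipFlop difference minus the B6 difference was -1.25 for *Ezh2* (SE 0.14, adjusted p = 1.58e-05), from 0.52 in B6 mice to -0.73 in FlipFlop mice. It was -0.77 for *Uhrf1* (SE 0.25, adjusted p = 0.030), -0.62 for *Bcl11b* (SE 0.22, adjusted p = 0.042) and -0.51 for *Dnmt3a* (SE 0.17, adjusted p = 0.033). Only for *Ezh2* was the difference called in both strains, with opposite signs, and the share of all tested genes called in both was not counted. The estimates of *Bcl11b* and *Dnmt3a* had opposite signs but were called in neither strain, and those of *Uhrf1* were -0.20 in B6 mice, not called, and -0.97 in FlipFlop mice. The interaction calls of *Uhrf1*, *Bcl11b* and *Dnmt3a* were each lost in 7 to 9 of the 12 fits that left out 1 library.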

How the results depend on the processing

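Of 70 results (10 genes in 7 comparisons), 18 were called, 9 of these stayed called in every alternative but the 5-fold limits, 9 were lost without 1 library and 7 in a linear model without eBayes, 11 others were called in at least 1 alternative, and 0 turned their direction while called. Under both of the study's limits of more than 5-fold, 0 members were called in any of the 7 comparisons. All genes called then numbered 180 and 182 (B6, p under 0.0001 and under 0.05), 250 and 256 (FlipFlop), 187 and 187 (lineage), 2 and 2 (coreceptor), 40 and 44 (strain), 55 and 62 (FlipFlop CD4 minus B6 CD8) and 47 and 52 (FlipFlop CD8 minus B6 CD4).

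Members called moved from 1 to 3 in B6 mice with length centring, also with the first B6 CD4 library left out, which gave 3 for strain (from 5) and 2 for FlipFlop CD4 minus B6 CD8 (from 1). The fit of the 6 libraries compared gave 2 for that last comparison, and 0 remained without eBayes or without the TMM factor. Without eBayes 1 was called for lineage (from 4) and 0 for coreceptor (from 1). Without the TMM factor, which moved the median of all genes by 0.11 for strain, by 0.12 for lineage, by -0.18 for FlipFlop and by 0.17 for FlipFlop CD8 minus B6 CD4, 8 were called for strain. All genes called moved from 918 to 1504 (FlipFlop CD4 minus B6 CD8) and from 3196 to 1889 (FlipFlop CD8 minus B6 CD4) with centring and the library left out, from 3196 to 1500 in the fit of 6 libraries, and from 636 to 301 (coreceptor) with a mean of at least 5 CPM. The cause was not tested.

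Without 1 library, members called ranged from 1 to 3 (B6), 2 to 3 (FlipFlop), 1 to 4 (lineage), 0 to 1 (coreceptor), 3 to 7 (strain), 0 to 2 (FlipFlop CD4 minus B6 CD8) and 2 to 5 (FlipFlop CD8 minus B6 CD4). All genes called ranged from 2275 to 3210, 2836 to 4419, 4007 to 5229, 396 to 604, 2485 to 4011, 515 to 1566 and 1654 to 3751 in the same order.

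With the replicate block, 2 members were called in B6 mice and 2 in FlipFlop CD4 minus B6 CD8. *Bcl11b* was then called in B6 mice (0.42, adjusted p = 0.016), for strain (0.30, adjusted p = 0.011) and in FlipFlop CD4 minus B6 CD8 (0.40, adjusted p = 0.035), and *Dnmt1* in FlipFlop CD8 minus B6 CD4 (0.27, adjusted p = 0.044). All of these but the B6 call came from a block shared by both strains, although no label ties their replicate numbers together. The block changed no other call of a member, and none in FlipFlop CD4 minus FlipFlop CD8, which the main fit took without pairs. In the simulated data, 34 of 49 genes changed 1.5-fold were called, and smaller changes were not simulated.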
